A study of Homo sapiens with 8 samples.

Results

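NEFH, the gene of the neurofilament heavy chain, was examined together with 9 other intermediate filament genes in HEK293T cells, a human embryonic kidney cell line, that stably carried TET1 constructs. NEFH was chosen by its signal in MBD-TET1-CDwt against empty vector on these same arrays, whereas NEFM, NEFL, INA, PRPH, NES, VIM, GFAP, DES, and SYNM were taken because they encode related filament proteins. These 10 genes were measured by 13 of the array's 34127 non-control probes, out of 19483 genes named on the array. Every cell line carried the same type of blasticidin-resistance plasmid and was expanded from 1 picked colony. The plasmid was an empty vector in lines #1 and #2, and it encoded the TET1 catalytic domain alone (TET1-CDwt) in lines #2 and #5. It encoded a fusion of that domain with the part of MBD2 that binds methyl-CpG (MBD-TET1-CDwt) in lines #3 and #10, or the fusion with a catalytically inactive domain (MBD-TET1-CDmut) in lines #9 and #10. The study asked whether bringing TET1 activity to methylated DNA raises the expression of silenced genes.

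Intermediate filaments are rope-like cytoskeletal polymers, and each cell type builds them from its own set of proteins. Mature neurons use NEFL, NEFM, and NEFH, whose chains co-assemble and set the caliber of large axons, together with alpha-internexin (INA) and, in peripheral neurons, peripherin (PRPH). NES encodes nestin of neural progenitors, VIM encodes vimentin of mesenchymal and many cultured cells, GFAP marks astrocytes, DES encodes desmin of muscle, and SYNM encodes synemin, which joins vimentin or desmin filaments. TET1 oxidizes 5-methylcytosine, the modification of CG dinucleotides that is associated with silenced promoters.

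Because the constructs act on methylated CG dinucleotides, the bases before the annotated start are shown for SYNM and NES, the members other than NEFH whose mean in MBD-TET1-CDwt exceeded that of empty vector at least 2-fold. NES did so on only its brighter probe, and neither gene passed the test given below. Of all probes tested, 2.21% differed that much in either direction, and the arrays of these constructs lay on separate slides. The sequences are from RefSeq on GRCh38.p14, 5′ to 3′, each 250 bases long, with every CG in capitals. SYNM lies at chr15:99104830-99105079 on the + strand and NES at chr1:156677408-156677657 on the - strand.
SYNM: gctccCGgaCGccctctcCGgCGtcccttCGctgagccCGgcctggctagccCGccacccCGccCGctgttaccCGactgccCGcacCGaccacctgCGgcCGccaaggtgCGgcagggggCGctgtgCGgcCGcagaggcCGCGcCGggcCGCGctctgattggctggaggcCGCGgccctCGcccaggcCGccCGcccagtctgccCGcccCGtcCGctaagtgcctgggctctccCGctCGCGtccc
NES: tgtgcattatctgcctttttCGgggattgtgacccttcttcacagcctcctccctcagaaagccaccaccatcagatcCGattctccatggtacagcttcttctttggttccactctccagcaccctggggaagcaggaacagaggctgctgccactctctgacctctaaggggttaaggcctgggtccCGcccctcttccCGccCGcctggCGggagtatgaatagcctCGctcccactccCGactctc
The SYNM stretch held 34 CG dinucleotides, a number reached by 6.84% of 35116 promoters of the same length, and the NES stretch held 8, a number reached by 56.3%. Among the other members in the promoter table, INA held 30, PRPH held 10, and VIM held 8, against a median of 11 over all promoters, of which 93.9% held at least 1 CG. CG reads the same on both strands, so these are counts of 1 motif. Promoters of NEFH, NEFM, NEFL, GFAP, and DES are not shown. Methylation was not measured on these arrays, and the annotated start may not be the start used in these cells.

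Levels are given on a normalized log2 scale, on which 0 is the 75th percentile of the signals on that array, control probes left out. Each probe has its own brightness, so levels are compared between arrays and never between genes. Whether a signal was well above background is the scanner software's own call. The lowest such signal lay between -6.01 and -5.51 on the 8 arrays, 63.2% to 68.2% of probes passed that call, and no spot was saturated. The 2 clones of each construct are the only replicates, and this number limits the precision. Slide 1 held the arrays of empty vector and TET1-CDwt, and slide 2 held those of the MBD fusions. In a comparison of an MBD fusion with empty vector, slide and construct cannot be told apart. The 4 HEK293T marker genes PAX2, KRT8, KRT18, and CDH2 each had a probe well above background on all 8 arrays. An array of bulk RNA cannot tell fewer expressing cells from less RNA per cell.

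NEFH was detected on both of its probes in both clones of MBD-TET1-CDwt and gave little or no signal elsewhere. On the brighter of its probes (A_23_P300600), the normalized log2 level was -0.35 in MBD-TET1-CDwt #3 and -0.55 in #10, corresponding to linear intensities of 275 and 224. It was -6.03 and -6.92 in empty vector #1 and #2, and -8.15 and -7.20 in TET1-CDwt #2 and #5, and none of these 4 signals was well above background. In MBD-TET1-CDmut it was -7.66 in #9, not well above background, and -4.40 in #10, which was well above background at an intensity of 18.4. Thus 3 of 8 arrays detected NEFH with this probe, and the inactive fusion was split between its clones.

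The dimmer probe (A_33_P3408152) passed the background call in MBD-TET1-CDwt #3 and #10 and on no other array. It gave -4.46 in MBD-TET1-CDwt #3 and -4.79 in #10, against -7.78 and -7.93 in empty vector, -8.00 and -7.94 in TET1-CDwt, and -7.50 and -7.57 in MBD-TET1-CDmut. The background calls therefore differed on MBD-TET1-CDmut #10, which the brighter probe detected and the dimmer did not. In MBD-TET1-CDwt #3 and #10 the dimmer probe read intensities of 15.9 and 11.8, against 275 and 224 on the brighter. A signal of 18.4 on the brighter probe, as in MBD-TET1-CDmut #10, could thus lie under the background of the dimmer. The dimmer probe therefore cannot decide whether NEFH was present on that array. Over the 8 arrays they ran together with a Pearson's r of 0.944, a description that rests mainly on the gap between MBD-TET1-CDwt and the other arrays. Where MBD-TET1-CDmut #10 is left out of that construct, the NEFH signal of the inactive fusion is that of #9 alone, at background on both probes.

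**Figure D1:**
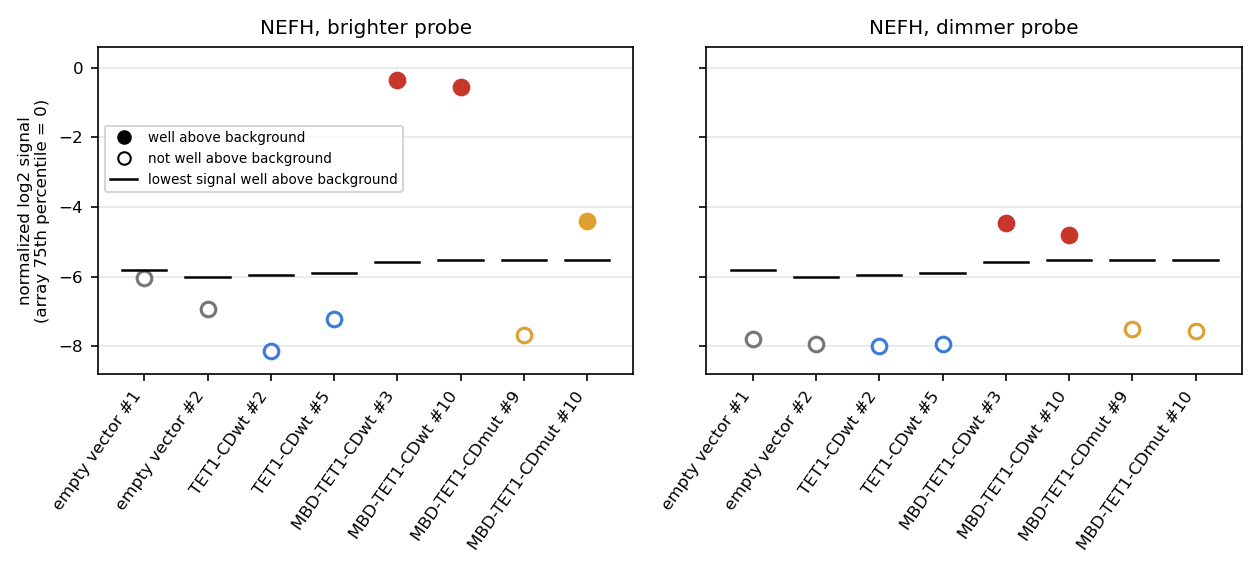
Normalized log2 signal (y axis) of the 2 NEFH probes on each of the 8 arrays (x axis), colored by construct. Filled points are well above background, open points are not, and black bars mark the lowest signal well above background on that array. Both MBD-TET1-CDwt clones are filled in both panels, and MBD-TET1-CDmut #10 is filled only for the brighter probe.

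On the brighter probe the group means were -0.45 ± 0.14 (SD, n = 2) for MBD-TET1-CDwt, -6.03 ± 2.30 for MBD-TET1-CDmut, -6.47 ± 0.63 for empty vector, and -7.67 ± 0.67 for TET1-CDwt. With dim signals raised to the lowest signal well above background, NEFH in MBD-TET1-CDwt was above empty vector by at least 44.2-fold on the brighter probe and by at least 2.44-fold on the dimmer probe. These bounds are 5.47 and 1.29 on the log2 scale, and under another background correction the differences were 2.47 and 0.49, the latter below 2-fold. Within slide 2, NEFH in MBD-TET1-CDwt was above MBD-TET1-CDmut by 22.9-fold on the brighter probe, with 1 of the 2 MBD-TET1-CDmut arrays well above background. The undetected signal of #9 was raised in the same way, so 22.9-fold is a lower bound too. The fold was 15.5 against #10 alone and at least 33.9 against #9 alone, which was not detected. Under the other background correction the log2 difference moved from 4.52 to 2.21. On the dimmer probe it was at least 1.87-fold, or 0.90 on the log2 scale, and 0.37 under that correction. These values describe the gene that was selected on them and carry no test. Below MBD-TET1-CDwt the order of the construct means has no meaning, since the clones of MBD-TET1-CDmut spread over both other constructs. Signals under the background bound have no order. On the brighter probe, MBD-TET1-CDmut #10 was detected and lay above the undetected signals of empty vector and TET1-CDwt.

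No test of NEFH is given for TET1-CDwt or MBD-TET1-CDmut against empty vector. The empty vector signals entered the choice of the gene, and 0 of 2 clones of TET1-CDwt and 1 of 2 clones of MBD-TET1-CDmut were detected on the brighter probe.

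The 2 MBD-TET1-CDwt clones differed in NEFH by 0.20 on the brighter probe and 0.33 on the dimmer, against a median difference of 0.37 over the 22567 probes that both clones of some construct detected. Both NEFH probes entered that set through MBD-TET1-CDwt alone, and NEFH was chosen by its signal there. These gaps are therefore a description of selected values. The MBD-TET1-CDwt clones lay farther apart on NEFM, INA, PRPH, NES, and SYNM, and closer together on NEFL, VIM, and DES.

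The other neuronal filament genes were detected in every cell line and did not follow NEFH. The signal of NEFM, the medium chain, was 2.51 and 2.50 in empty vector, 3.23 and 3.04 in TET1-CDwt, 0.32 and 2.51 in MBD-TET1-CDwt #3 and #10, and 2.87 and 2.29 in MBD-TET1-CDmut. The low value was that of MBD-TET1-CDwt #3 alone, and #10 lay with empty vector. The mean of MBD-TET1-CDwt was 2.13-fold below empty vector (log2 difference -1.09 ± 0.63 SE, limma adjusted p = 0.852) and 2.24-fold below MBD-TET1-CDmut (-1.16, limma adjusted p = 0.783). Without MBD-TET1-CDwt #3 the differences were 0.0074 and -0.06. Without MBD-TET1-CDwt #10 they were -2.19 and -2.26, and the second then passed limma at an adjusted p of 0.0452, with the spread of the lone clone taken from the other constructs. The gap of 2.20 between the MBD-TET1-CDwt clones was reached by 1.39% of probes.

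NEFL, the light chain on which neurofilament assembly depends, was steady. Its level was 1.23 and 1.14 in empty vector, 1.53 and 1.31 in TET1-CDwt, 1.12 and 1.03 in MBD-TET1-CDwt, and 1.46 and 1.25 in MBD-TET1-CDmut, a range of 0.50 over all arrays. Both MBD-TET1-CDwt clones were the lowest of the 8, but the difference from empty vector was -0.11 (95% interval -0.54 to 0.31, limma adjusted p = 0.941).

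INA and PRPH differed more between the sister clones of TET1-CDwt and of MBD-TET1-CDwt than between construct means. INA read -0.15 and -0.41 in empty vector, -0.11 and -1.36 in TET1-CDwt, 0.66 and -0.88 in MBD-TET1-CDwt, and 0.05 and -0.29 in MBD-TET1-CDmut. PRPH read 0.63 and -0.26 in empty vector, 1.77 and -1.09 in TET1-CDwt, -0.71 and 0.81 in MBD-TET1-CDwt, and -0.15 and 0.19 in MBD-TET1-CDmut. The highest and the lowest PRPH values of all 8 arrays were thus the TET1-CDwt clones, whose gap of 2.86 was reached by 0.230% of probes. MBD-TET1-CDwt differed from empty vector by 0.18 for INA (limma adjusted p = 0.974) and by -0.13 for PRPH (limma adjusted p = 0.988). The 95% intervals, -1.17 to 1.52 for INA and -2.32 to 2.06 for PRPH, allow differences of more than 2-fold either way.

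NES had its highest level in MBD-TET1-CDwt #10, and it did not pass the test on either probe. On its brighter probe (A_23_P103672) the level was -1.14 and -1.53 in empty vector, -0.50 and -1.10 in TET1-CDwt, -0.62 and 0.76 in MBD-TET1-CDwt #3 and #10, and -0.59 and -0.58 in MBD-TET1-CDmut. Clones of MBD-TET1-CDwt and empty vector did not overlap, but neither did those of NEFL, VIM, and DES, at differences of -0.11, -0.16, and -0.06. The share of all probes without overlap was not taken. Within MBD-TET1-CDwt, #3 lay below TET1-CDwt #2 and both MBD-TET1-CDmut clones. The mean was 2.64-fold higher than in empty vector (log2 difference 1.40 ± 0.45 SE, limma unadjusted p = 0.0167, adjusted p = 0.661), and 0.71 higher without MBD-TET1-CDwt #10. The dimmer NES probe (A_33_P3358233) gave a difference of 0.64 (limma adjusted p = 0.866) with overlapping clones. Against MBD-TET1-CDmut, within slide 2, the differences were 0.65 and 0.09 on the brighter and dimmer probe (limma adjusted p = 0.835 and 0.975), and -0.039 and -0.43 without MBD-TET1-CDwt #10.

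SYNM was low but well above background on every array, and its means were higher in both MBD fusions. Its level was -4.37 and -4.01 in empty vector, -3.62 and -4.56 in TET1-CDwt, -2.76 and -3.16 in MBD-TET1-CDwt, and -3.14 and -3.67 in MBD-TET1-CDmut. The MBD-TET1-CDwt clones did not overlap with empty vector, as was also the case for NEFL, VIM, and DES, but did overlap with MBD-TET1-CDmut. The mean in MBD-TET1-CDwt was 2.34-fold that in empty vector (log2 difference 1.23 ± 0.36 SE, limma unadjusted p = 0.0115, adjusted p = 0.610). MBD-TET1-CDmut was itself 0.78 above empty vector (limma adjusted p = 1.00), and within the slide MBD-TET1-CDwt and MBD-TET1-CDmut differed by 0.44 (limma adjusted p = 0.865). The difference from empty vector was 0.54 under another background correction. The part of the slide in this difference was not tested.

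DES was nearly level, whereas VIM ranged over 0.99 across the arrays. VIM read 7.13 and 6.98 in empty vector, 6.61 and 7.08 in TET1-CDwt, 6.90 and 6.89 in MBD-TET1-CDwt, and 7.59 and 7.27 in MBD-TET1-CDmut. Within slide 2, the difference of MBD-TET1-CDwt from MBD-TET1-CDmut was -0.54 (limma unadjusted p = 0.0474, adjusted p = 0.730). DES stayed between -0.67 and -0.25 on all arrays, and its 2 MBD-TET1-CDwt clones, at -0.47 and -0.46, lay among them.

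GFAP was not well above background on any array on either of its probes (A_33_P3335895 and A_23_P66593), which read between -8.24 and -7.63. Their differences between MBD-TET1-CDwt and empty vector were 0.38 and 0.39. Over the 9152 probes that were well above background on no array, the median of the same difference was 0.37, and it was 0.35 for MBD-TET1-CDmut against empty vector and 0.03 for MBD-TET1-CDwt against MBD-TET1-CDmut, within slide 2.

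**Figure D2:**
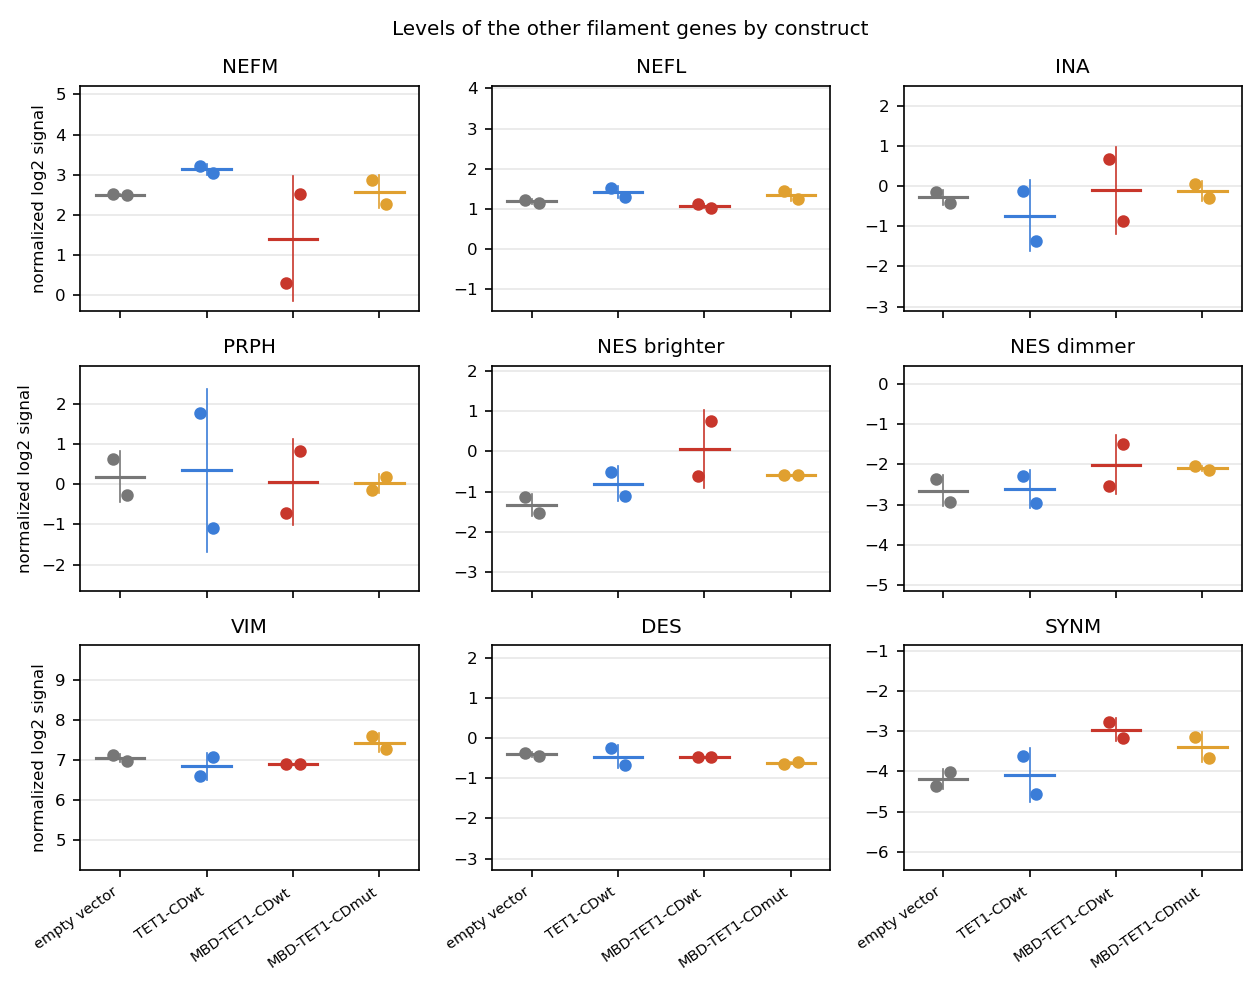
Normalized log2 signal (y axis, equal span in all panels) of the 9 probes of NEFM, NEFL, INA, PRPH, NES, VIM, DES, and SYNM by construct (x axis). Points are the 2 clones, horizontal lines are their mean, and vertical lines are 1 SD. NEFM is low only in MBD-TET1-CDwt #3, PRPH spreads most between the TET1-CDwt clones, and NEFL and DES stay nearly level.

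Across the family, 11 of the 13 probes were detected in both clones of some construct and entered the fit, 9 of them from genes other than NEFH. In MBD-TET1-CDwt against empty vector, limma called 0 of these 9 (2 at an unadjusted p under 0.05), where 0.115% of all probes tested were called and 6.58% had such an unadjusted p. By size, 3 of the 9 differed at least 2-fold, with NES on its brighter probe and SYNM higher and NEFM lower, against a background of 2.21% of all probes tested. Both NEFH probes were also past 2-fold, as the choice of the gene fixes. The median of the 9 differences was -0.06 and that of all probes was -0.02.

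In MBD-TET1-CDwt against MBD-TET1-CDmut, limma called 0 of the 9 (1 at an unadjusted p under 0.05), where 0.102% of all probes were called and 6.82% had such an unadjusted p. NEFM was the only 1 of the 9 to differ 2-fold, against a background of 2.38%. In TET1-CDwt against empty vector, limma called 0 of the 9 (0 at an unadjusted p under 0.05) and 0% of all probes (2.49% unadjusted), and none differed 2-fold where 0.913% of all probes did. In MBD-TET1-CDmut against empty vector, limma called 0 of the 9 (0 unadjusted) and 0% of all probes (2.68% unadjusted), and none differed 2-fold where 0.771% of all probes did. The comparisons against empty vector share the same 2 control arrays.

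**Figure D3:**
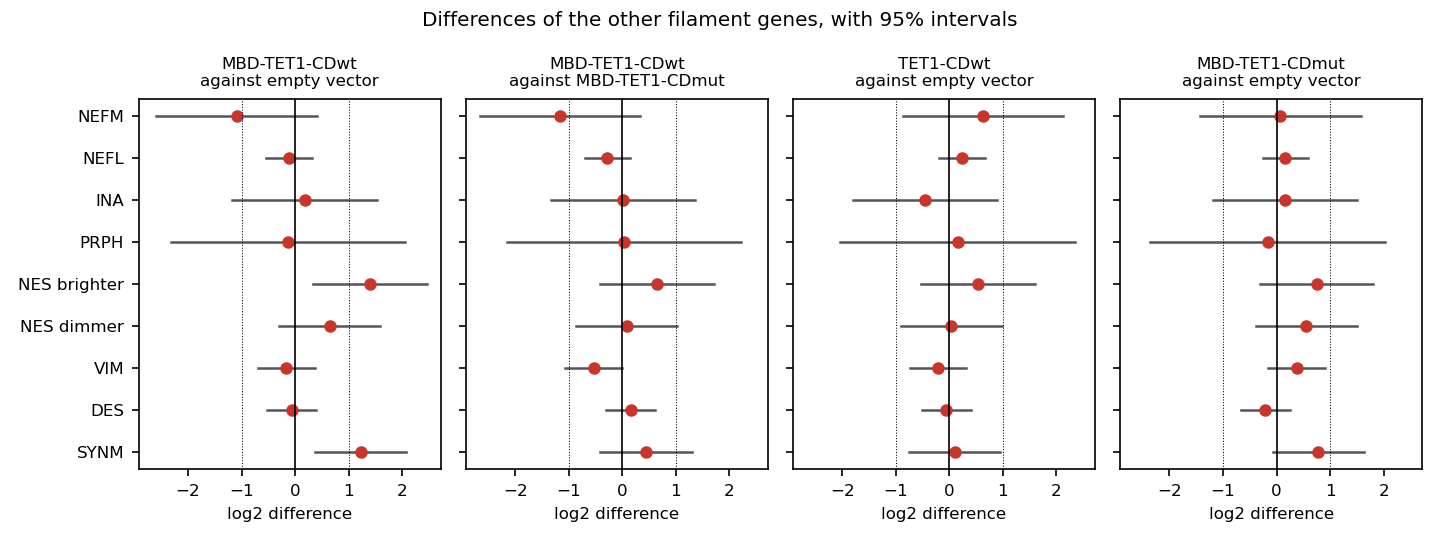
Log2 difference (x axis) of the 9 probes of genes other than NEFH (y axis) in 4 comparisons. Points are differences of means of 2 clones, bars are 95% intervals from limma, the solid line is 0, and dotted lines mark 2-fold. Of the bars, 3 exclude 0 before adjustment: NES brighter and SYNM against empty vector, and VIM against MBD-TET1-CDmut.

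**Figure D4:**
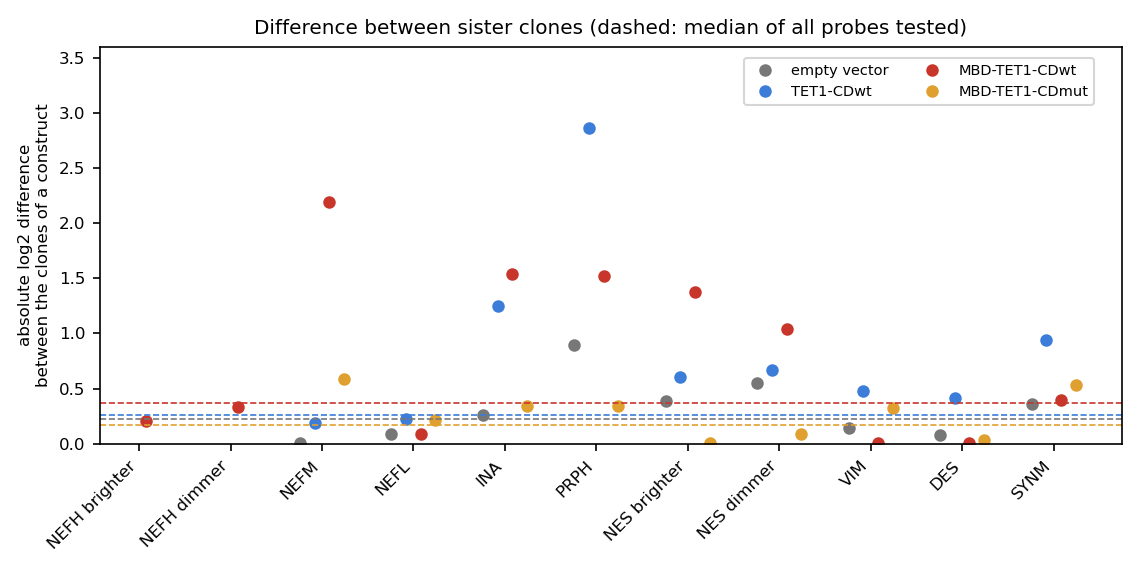
Absolute log2 difference between the 2 clones of each construct (y axis) for the 11 member probes in the fit (x axis), drawn only where both clones were well above background. Dashed lines are medians over all 22567 probes in the fit, by construct. The largest gaps drawn are PRPH in TET1-CDwt (2.86) and NEFM in MBD-TET1-CDwt (2.20).

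The plot of clone differences sets these gaps side by side. In MBD-TET1-CDwt, NEFM, INA, PRPH, and both NES probes differed between the clones by 1.04 to 2.20, above the median of 0.37, while VIM and DES differed by 0.01 or less. The direction was not shared, since #3 was the lower clone for NEFM, PRPH, and NES and the higher for INA.

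Genes that act on filaments or mark the cell types that use them were read from 12 lists holding 100 genes, of which 97 probes entered the fit. In each of the 4 comparisons limma called 0 of these 97, where it called 0.115%, 0.102%, 0%, and 0% of all probes. By size, in MBD-TET1-CDwt against empty vector, EPPK1 and KRT19 were at least 2-fold higher and CHGA and MYOD1 at least 2-fold lower, or 4.12% of the 97 probes against 2.21% of all probes. Against MBD-TET1-CDmut they were KRT19 and SNAI2, higher, and CHGA, MYOD1, and RBFOX3, lower, or 5.15% against 2.38%. Both shares include KRT19, which was listed with its difference known. None met the 2-fold rule, which raises dim signals and needs detection in the higher group, in TET1-CDwt or MBD-TET1-CDmut against empty vector. Differences as measured reached 1.09 for a keratin probe in TET1-CDwt and 1.34 for a plakin linker probe in MBD-TET1-CDmut. In MBD-TET1-CDwt against MBD-TET1-CDmut a plakin linker probe reached -1.75 without meeting the rule.

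Neuronal markers were tested with 10 probes, and none was 2-fold higher in MBD-TET1-CDwt. The median difference from empty vector was -0.29. CHGA, the granule protein of neuroendocrine cells, differed from empty vector by -1.21 on the log2 scale and from MBD-TET1-CDmut by -1.85 (limma adjusted p = 0.809 and 0.647). The clones were split, with CHGA at -3.08 in MBD-TET1-CDwt #3 and -1.53 in #10. It read -0.90 and -1.30 in empty vector and -1.53 in TET1-CDwt #5. RBFOX3, the neuronal nuclear antigen NeuN, read -0.42 and -0.36 in MBD-TET1-CDwt, below all other clones, which lay between 0.13 and 1.36 (limma adjusted p = 0.756 and 0.322). MAP2, a dendritic microtubule protein, was 0.99 higher than in empty vector (limma adjusted p = 0.693). DCX and ELAVL3 were well above background on no array. The summed signal of the list, as log2, lay between 5.74 and 5.89 in MBD-TET1-CDwt and between 5.77 and 6.24 in the other constructs.

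Regulators of neuronal transcription gave 8 probes, none 2-fold different, and NEUROD1 was never well above background. Of the astrocyte and Schwann cell markers 2 probes were tested, and S100B and SLC1A2 were never well above background. The glutamate transporter SLC1A3 read 1.48 in MBD-TET1-CDwt #3 and between -0.40 and -0.04 on the other 7 arrays. Of the muscle markers 8 probes were tested, with a median difference from empty vector of 0.03. MYOD1, the regulator of myogenic fate, differed by -1.09 (limma adjusted p = 0.759), CKM, the muscle creatine kinase, by 1.15 (limma adjusted p = 0.924), and MYOG, a regulator of muscle differentiation, by 0.37 (limma adjusted p = 0.811). CKM read -5.31 in MBD-TET1-CDwt #3, near background, and -2.08 in #10, and it was well above background on 5 of 8 arrays.

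Genes whose products link, modify, move, or degrade filaments had no probe that passed the test. Among plakin linkers, which tie filaments to junctions and other cytoskeleton, EPPK1 was 1.07 higher than in empty vector (limma adjusted p = 0.741) but 0.36 higher than in MBD-TET1-CDmut. The 17 probes of filament kinases and phosphatases differed from empty vector by -0.50 to 0.56, with CDK5, which phosphorylates neurofilament tails, at 0.48 (limma adjusted p = 0.756). Of the turnover and chaperone genes, HSPB1 was 0.74 higher (limma adjusted p = 0.741) but 0.10 from MBD-TET1-CDmut. KIF5A, the neuronal kinesin that carries neurofilaments, differed from empty vector by -0.94 (limma unadjusted p = 0.00169, adjusted p = 0.344). TET1-CDwt differed from empty vector by the same -0.94, and MBD-TET1-CDwt from MBD-TET1-CDmut by -0.35 (limma adjusted p = 0.777). Lamins and other intermediate filaments differed from empty vector by at most 0.65, for BFSP1 (limma adjusted p = 0.736).

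Among simple epithelial keratins, KRT19 was 6.26 above empty vector on the log2 scale, with both MBD-TET1-CDwt clones, at -0.27 and 2.52, above all others. Since KRT19 was listed with this difference known, the values are a description and no p-value is given. The probes of KRT8, KRT18, and KRT7 differed from empty vector by -0.35 to 0.89.

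The 5 genes whose levels followed the brighter NEFH probe most closely over the 8 arrays were PARD6G-AS1, MAGEA8, VASH2, FAAP20, and INTS7, with Pearson's r of 0.982, 0.971, 0.971, 0.967, and 0.963. The correlation ignores the size of the change. PARD6G-AS1 ranged over 0.45 on the log2 scale, FAAP20 over 0.50, INTS7 over 0.70, and VASH2 over 1.25. MAGEA8 ranged over 5.34, from background in empty vector to -3.59 and -2.83 in MBD-TET1-CDwt, and was well above background on those 2 arrays only. The points share arrays, 2 slides, and 4 constructs, and the values at background enter as measured. NEFH was chosen for its level in MBD-TET1-CDwt, so a peak of the genes most like it in those arrays follows from the choice. Among the other members r ran from -0.79 for NEFL and -0.75 for NEFM to 0.60 for SYNM and for NES on its brighter probe.

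None of the measured neighbors of NEFH on its chromosome passed the test. Of the 3 nearest genes on each side in the RefSeq gene table, 4 were on the array. On one side RFPL1S was well above background on no array. On the other side THOC5 differed between MBD-TET1-CDwt and empty vector by -0.13, NIPSNAP1 by -0.20, and NF2 by 0.57 and 0.29 on its probes (limma adjusted p between 0.774 and 0.962).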

How the data were processed

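Cy3-labeled cRNA of 8 stable HEK293T clones, 2 for each of 4 constructs, was hybridized to single-color Agilent arrays. The deposited intensity values are the authors' processed signals, which are background-subtracted and detrended by Agilent Feature Extraction (version 9.5.1 per the labels, 10.7.3.1 per the file headers) and not scaled between arrays. The deposited table of the series holds the same values in all 44495 rows of each array.

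Control spots and the 213 to 269 outlier spots per array were left out. The log2 intensity as deposited minus the array's 75th percentile (an intensity of 328 to 527) was averaged over a probe's spots, and a probe with more than 50% of its spots above background was taken as well above background. Probes were named by the RefSeq gene table of GRCh38.p14, which gave a symbol to 25422 of 34127 probes. The array design used an older build, so the only coordinates given are those of the 2 printed RefSeq promoters.

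limma (version 3.58.1, R 4.3.3) was fitted to 22567 probes on all 8 arrays, with 1 mean per construct and 4 degrees of freedom left for the residuals, and with Benjamini-Hochberg adjustment at 0.05, after the fit was tested on simulated data. Intervals are at 95%. A fold counted at 2-fold when the higher group was well above background on both arrays, and dim signals were raised to the lowest signal well above background on their array. "At least" marks folds over a construct in which neither clone was detected. A fold over a construct with 1 undetected clone is a lower bound too. Nothing in the labels says that clones are more than separate lines, so p-values measure the spread between them. The members and the lists were chosen with earlier results of these data known. The genes named are all members, up to 4 genes of a list by difference from empty vector, the 5 genes most like NEFH, and 3 neighbors on each side of it, and beyond this rule the genes past 2-fold and those never above background, which were named after their values were seen. A few listed genes are not reported by name here. Alternatives were another background correction (normexp, offset 50), quantile and median scaling, other filters and priors, outlier spots kept, dim signals as measured, and leaving out each clone. Tables and plots were made in Python 3.11.15 with pandas 2.3.3, numpy 2.4.6, and matplotlib 3.10.9.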

Additional observations from a re-analysis of the deposited data

How the results depend on the processing

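The limma count among the 9 probes of genes other than NEFH was 0 under all alternatives in each of the 4 comparisons, except that it was 0 to 1 in MBD-TET1-CDwt against MBD-TET1-CDmut when single clones were left out, where NEFM passed without MBD-TET1-CDwt #10. Of 216 alternatives of these probes in the 2 comparisons of MBD-TET1-CDwt, 1 passed and 11 changed sign, all of the latter far from the threshold.

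NEFH in MBD-TET1-CDwt against empty vector was 5.47 on the log2 scale with dim signals raised, 6.02 with dim signals as measured, and 2.47 with normexp on the brighter probe, and 1.29, 3.23, and 0.49 on the dimmer. Against MBD-TET1-CDmut it was 4.52, 5.58, and 2.21 on the brighter probe and 0.90, 2.91, and 0.37 on the dimmer. The offset of normexp adds to dim and bright signals alike and so narrows their distance by construction. Leaving out single clones gave 5.36 to 5.57 and 1.12 to 1.45 against empty vector, and 3.95 to 5.08 and 0.74 to 1.07 against MBD-TET1-CDmut.

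Against empty vector, the sign changed without MBD-TET1-CDwt #3 for NEFM (0.0074), INA (-0.59), and PRPH (0.63), and without empty vector #1 for PRPH (0.31), with ranges over single clones left out of -2.19 to 0.0074, -0.59 to 0.95, and -0.89 to 0.63. Against MBD-TET1-CDmut it changed for INA with quantile normalization (-0.010), without MBD-TET1-CDwt #3 (-0.76), and without MBD-TET1-CDmut #10 (-0.16), for PRPH without MBD-TET1-CDwt #10 (-0.72) and without MBD-TET1-CDmut #9 (-0.14), and for NES without MBD-TET1-CDwt #10 (-0.039 on the brighter probe and -0.43 on the dimmer), with ranges of -0.76 to 0.78 for INA, -0.72 to 0.80 for PRPH, and -0.039 to 1.34 and -0.43 to 0.61 for NES. The cause was not tested. The count of 2-fold probes, 3 against empty vector, was 2 with normexp (SYNM lost) and without MBD-TET1-CDwt #10 (NES lost). Without MBD-TET1-CDwt #3 it stayed at 3, but NEFM (0.0074) was lost and the dimmer NES probe (1.16) entered. Against MBD-TET1-CDmut without MBD-TET1-CDwt #3 it stayed at 1, with the brighter NES probe (1.34) in place of NEFM (-0.06). In the other comparisons leaving out 1 clone moved the count from 1 to 0 (without MBD-TET1-CDmut #9), or from 0 to 2 (without TET1-CDwt #2) and to 1 (without TET1-CDwt #5, and in MBD-TET1-CDmut against empty vector without MBD-TET1-CDmut #10).

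The normexp correction used the median signal and, for 22 spots with a local background over 5 times their array's median, that median, because its fit failed on these spots, a choice made after seeing the data. No paired analysis was possible because the clones were separately picked colonies, and equal clone numbers do not pair lines between constructs. Signals below about -5.5 are limited by background.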
